A study of Rattus norvegicus with 18 samples.

Results

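Adipocyte genes were followed in gastrocnemius RNA of 18 rats, from the secreted proteins Adipoq and Cfd to the transcription factor Pparg and the lipid genes Fabp4, Lpl and Fasn. The genes were chosen by Ensembl identifier and chromosome, and 6 of the 7 proposed identifiers lay on the chromosome given for their gene. The identifier proposed for the seventh gene, Lep, lies on chromosome 3 of Rnor_6.0 and not on 4, so it was dropped and Lep was not analysed here. The 6 genes are among 32883 identifiers in the deposited table and among the 14646 that passed a filter on low counts, which all 6 did. The files do not pair identifiers with symbols, so the symbols are those of the list by which the genes were chosen. As a check, the chromosome of each of the 6 was the one RefSeq gives for its symbol, and the length from first to last base was between 0.95 and 1.03 times the RefSeq length, against 1.90 for the dropped identifier.

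The rats were male Brown Norway animals, housed singly from 2 months of age, when they were assigned to ad libitum (AL) feeding or caloric restriction (CR). There were 6 rats fed AL and taken at 6 months (young rats fed AL), 6 fed AL and taken at 28 months (aged rats fed AL) and 6 on CR taken at 28 months (aged CR rats). The CR ration was 55% of AL intake and was given as a daily portion in the morning, whereas AL food was present at all times, so the amount eaten and the timing of feeding cannot be told apart here. There was no young CR group. The study asked which transcripts of ageing muscle differ between young and aged rats and how far CR shifts them. Gene counts per library ranged from 17335401 to 27432767 (median 21569117). A column name matched 1 rat for 15 libraries, and the other 3 could be tied to no single rat of the aged CR group and go by their library numbers, 8826, 8827 and 8828. Library numbers run in a separate block for each group, so any effect of handling in such blocks cannot be told apart from the group.

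Adipocytes store triglyceride in a single large droplet and lie between the fibres and along the fascia of skeletal muscle. PPARγ, the product of Pparg, is the nuclear receptor on which fat cell differentiation depends, and Adipoq, Fabp4 and Lpl are classical targets of it. Adiponectin (Adipoq) and adipsin (Cfd) are secreted mainly by fat cells, whereas lipoprotein lipase (Lpl) is also made by muscle fibres, the fatty acid binding protein Fabp4 also by capillary endothelium and macrophages, and fatty acid synthase (Fasn) by many tissues, with liver among the highest. In bulk RNA, more fat cells in a sample and more RNA of a gene per fat cell cannot be told apart. Symbols of other adipocyte, muscle, endothelial, macrophage and liver genes could not be paired with identifiers, so these markers were not analysed here, and neither the adipocyte label nor the labelled tissue could be checked against markers beyond the genes described.

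The genes lie at the following places in Rnor_6.0. Adipoq (ENSRNOG00000001821) spans chr11:81330293-81344488 on the minus strand, Cfd (ENSRNOG00000033564) chr7:12634216-12635943 on the minus strand and Pparg (ENSRNOG00000008839) chr4:147274107-147399380 on the plus strand. Fabp4 (ENSRNOG00000010805) spans chr2:93792601-93797305 on the plus strand, Lpl (ENSRNOG00000012181) chr16:22537056-22561496 on the minus strand and Fasn (ENSRNOG00000045636) chr10:109987735-110005901 on the minus strand. Each value is a sum over all annotated exons, which cover 667 bases in Fabp4, 1001 in Cfd, 2039 in Adipoq, 2294 in Pparg, 3671 in Lpl and 9139 in Fasn.

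RefSeq promoter sequences (build GRCr8) were at hand for 3 of the 6 genes, in 4 windows. They are shown because Adipoq and Cfd are the genes made mainly by fat cells and Pparg encodes the receptor, and because Pparg has a pair of starts that gene counts add up. Each line gives the 250 bases before the start, 5′ to 3′ on the strand of the gene, with matches to 4 motifs in capitals.
Adipoq, chr11:91240170-91240419, minus strand: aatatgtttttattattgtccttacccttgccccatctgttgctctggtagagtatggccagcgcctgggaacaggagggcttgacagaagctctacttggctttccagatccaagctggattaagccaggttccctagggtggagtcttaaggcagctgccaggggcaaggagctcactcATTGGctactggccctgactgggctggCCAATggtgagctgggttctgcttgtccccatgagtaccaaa
Cfd, chr7:10465497-10465746, minus strand: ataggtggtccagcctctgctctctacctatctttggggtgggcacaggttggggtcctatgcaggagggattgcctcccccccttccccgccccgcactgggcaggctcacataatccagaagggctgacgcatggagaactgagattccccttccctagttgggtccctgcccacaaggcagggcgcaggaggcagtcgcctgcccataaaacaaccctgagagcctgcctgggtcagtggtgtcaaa
Pparg upstream start, chr4:150096808-150097057, plus strand: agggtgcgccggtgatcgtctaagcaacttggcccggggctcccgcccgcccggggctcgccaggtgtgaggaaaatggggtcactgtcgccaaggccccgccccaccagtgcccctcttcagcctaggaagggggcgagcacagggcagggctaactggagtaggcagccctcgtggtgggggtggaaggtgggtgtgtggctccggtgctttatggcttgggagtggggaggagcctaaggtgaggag
Pparg downstream start, chr4:150154522-150154771, plus strand: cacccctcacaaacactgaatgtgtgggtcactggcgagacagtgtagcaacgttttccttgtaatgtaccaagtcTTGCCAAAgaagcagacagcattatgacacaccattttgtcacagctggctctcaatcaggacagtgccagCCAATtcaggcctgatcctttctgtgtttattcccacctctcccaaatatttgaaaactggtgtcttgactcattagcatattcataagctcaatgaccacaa

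The motifs were TATAAA (the TATA box), CCAAT (the CCAAT box), AGGTCA (the half-site of nuclear receptors such as PPARγ) and TTGCNNAA (a relaxed form of the C/EBP site), each searched on both strands. The Adipoq window held CCAAT on the minus strand at -69 to -65 and on the plus strand at -42 to -38, counted from the start. The window of the downstream Pparg start held TTGCNNAA at -174 to -167 and CCAAT at -103 to -99. The windows of Cfd and of the upstream Pparg start held no match. Of 33469 promoter windows of this length, CCAAT was found in 34.0%, AGGTCA in 14.1%, TATAAA in 12.9% and TTGCNNAA in 9.22%. The Pparg starts also differed in base composition, with 67.2% G or C and 13 CpG in the upstream window and 44.8% and 2 in the downstream one. A match is a description of letters, and the counts do not bear on binding at any of them.

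A pair of libraries stood apart from all the others in these genes, rat 8 among the aged rats fed AL and library 8828 among the aged CR rats. In each of the 6 genes these libraries held the highest and second highest value of the 18. The 6 genes together took 1.08% of all gene counts in rat 8 and 0.888% in library 8828, against 0.0533% to 0.207% in the other libraries. The same libraries stood apart over the whole transcriptome. With the 6 genes left out, rat 8 lay at 97.7 and library 8828 at 65.1 on the first principal component of log2 CPM (counts scaled to the TMM-corrected size of each library), and the other 16 between -35.4 and 6.62. The TMM scaling factor was 1.44 in rat 8 and 1.12 in library 8828, and 0.838 to 1.14 in the others, so that only that of rat 8 lay outside. Which tissue or cell type the wider difference comes from was not tested, and each comparison is given with and without these libraries.

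**Figure D1:**
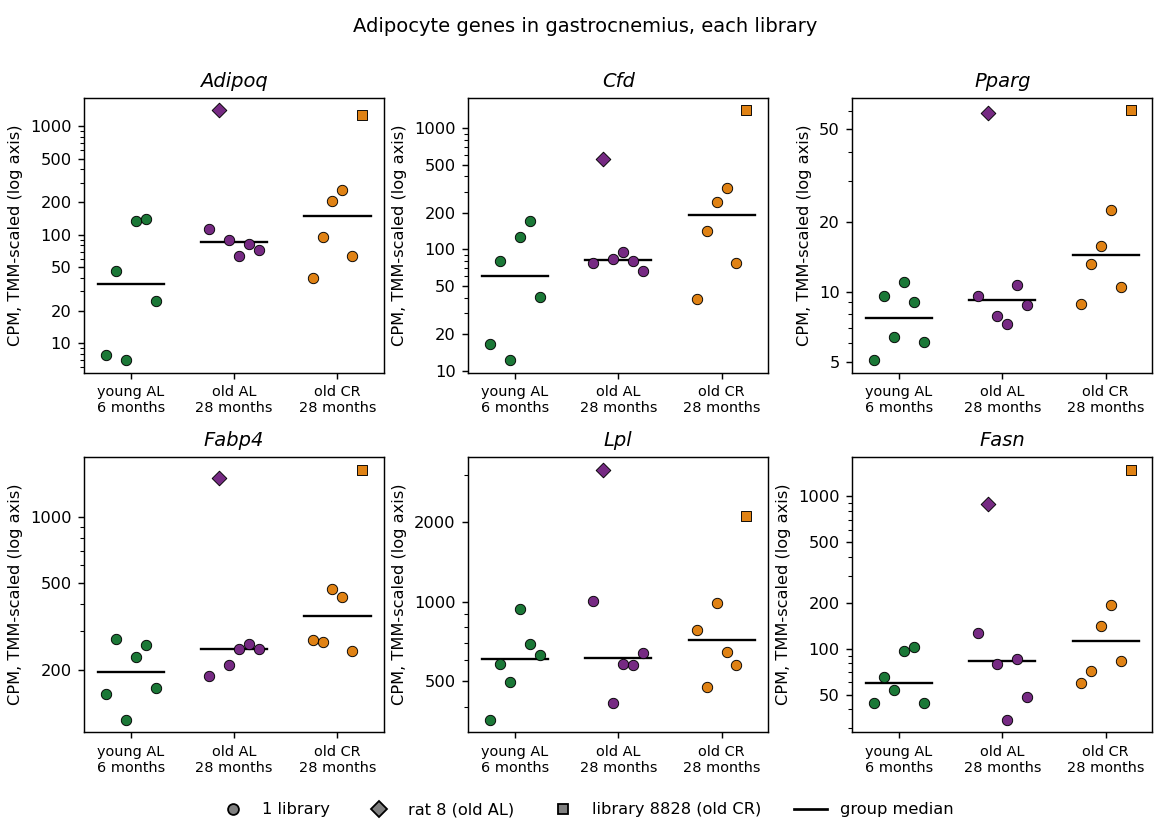
CPM (TMM-scaled, log axis) of the 6 genes in each of the 18 libraries, by group; circles are single libraries, the diamond is rat 8, the square is library 8828 the line is the group median and "old" stands for aged. Rat 8 and library 8828 are the highest libraries in every panel, and without them the groups overlap in all 6 genes.

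Adipoq encodes adiponectin, the most abundant hormone of fat cells. Its level was 7.01 to 141 CPM (median 35.2) in young rats fed AL, 63.5 to 1402 (85.9) in aged rats fed AL and 39.6 to 1257 (149.5) in aged CR rats. The highest value of each aged group was that of rat 8 or library 8828, and the next highest were 113 and 261 CPM. Young rats already differed 20.1-fold among themselves, with rats 1 and 3 under 8 CPM, at 7.85 and 7.01, and rats 4 and 5 at 135 and 141 CPM. By contrast, the 5 aged rats fed AL other than rat 8 lay within 1.78-fold of each other. The SD of log2 CPM was 1.87 in young rats (n = 6). It was 1.69 in all 6 aged rats fed AL and 0.32 in the 5 without rat 8. In the aged CR group it was 1.77 in all 6 libraries and 1.13 in the 5 other than 8828.

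Cfd encodes adipsin, a serine protease of the alternative complement pathway. It ranged from 12.2 to 170 CPM (median 60.2) in young rats fed AL. In aged rats fed AL it had 65.9 to 559 CPM (median 81.5), and all but rat 8 lay between 65.9 and 95.1. Aged CR rats had 38.7 to 1406 CPM (median 192.5), and the second highest library, 8826, had 324. The 6 young rats stood in the same order as in Adipoq, with rats 1 and 3 lowest (16.7 and 12.2 CPM) and rats 4 and 5 highest (125 and 170 CPM).

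Pparg was the least abundant of the 6 genes. It had 5.09 to 11.0 CPM (median 7.73) in young rats fed AL, 7.29 to 58.8 (9.18) in aged rats fed AL and 8.87 to 60.4 (14.4) in aged CR rats. Without rat 8 the aged rats fed AL had at most 10.6 CPM, which is within the range of the young rats. Without library 8828 the aged CR rats had 8.87 to 22.5 CPM, and 3 of these 5 libraries were above every young rat. Library 8826 was the highest of them and rat 15 the next, at 15.7 CPM. Counts behind these values were 105 to 456 outside the pair of high libraries, the lowest of any gene described here.

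Fabp4 encodes the fatty acid carrier of the adipocyte cytosol and had the highest level per length of the 6 genes. It had 119 to 277 CPM (median 196.5) in young rats fed AL, 187 to 1504 (249) in aged rats fed AL and 243 to 1642 (352) in aged CR rats. The young rats differed only 2.33-fold. The aged CR libraries other than 8828 fell into 3 at 243 to 274 CPM and 2 at 430 and 470 CPM, the latter being library 8826 and rat 15, which also had the most Adipoq, Cfd and Pparg in this group after library 8828.

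Lpl encodes the lipase that releases fatty acids from circulating triglyceride at the capillary wall. Its level was 359 to 940 CPM (median 605) in young rats fed AL, 416 to 3142 (612) in aged rats fed AL and 476 to 2107 (715) in aged CR rats. The medians of the groups thus lay close to each other, and outside rat 8 and library 8828 no library exceeded 1002 CPM. Fasn encodes the enzyme that builds palmitate from malonyl-CoA. It had 43.6 to 102 CPM (median 59.1) in young rats fed AL, 34.2 to 890 (82.4) in aged rats fed AL and 59.2 to 1496 (111.7) in aged CR rats. The lowest Fasn value of all 18 libraries was that of an aged rat fed AL, rat 10, which had 63.5 CPM of Adipoq.

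Per length, in TPM (counts divided by exonic length and scaled to the same total in every library) computed from the counts and exonic lengths, the median over the 18 libraries was 613 for Fabp4, 276 for Lpl, 143 for Cfd, 70.5 for Adipoq, 13.6 for Fasn and 6.90 for Pparg. Fabp4 and Lpl were above 98.7% and 97.4% of the genes tested, Cfd and Adipoq above 95.3% and 90.3%, Fasn above 59.8% and Pparg above 43.2%. The spread over libraries ran in another order. The highest library exceeded the lowest 200-fold in CPM of Adipoq (200.1), 115-fold in Cfd, 43.8-fold in Fasn, 13.9-fold in Fabp4, 11.9-fold in Pparg and 8.75-fold in Lpl. Over all 18 libraries, Adipoq and Cfd, made mainly by fat cells, thus had the widest range of the 6, and Lpl the narrowest. The highest value of each gene was that of rat 8 or library 8828. Adipoq and Cfd also ranged most widely among the young rats and among the aged CR libraries other than 8828. Among the 5 aged rats fed AL other than rat 8, they did not. There Fasn ranged 3.72-fold and Lpl 2.41-fold, against 1.78-fold for Adipoq and 1.44-fold for Cfd.

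Rat 8 and library 8828 did not exceed their groups by the same factor in all genes. Adipoq in rat 8 was 17.1 times the median of the other 5 aged rats fed AL, Fasn 11.2 times, and Cfd, Pparg, Fabp4 and Lpl between 5.40 and 6.97 times. In library 8828, set against the median of the other 5 of its group, Fasn had the largest ratio (18.1 times), followed by Adipoq (13.2), Cfd (9.96), Fabp4 (5.99), Pparg (4.59) and Lpl (3.26). Lpl thus had the smallest excess in both libraries. Among all genes with a median of at least 1 CPM in the other libraries of the group, 0.369% had a larger ratio than Adipoq in rat 8 and 2.31% a larger one than Lpl. In library 8828, 0.0552% had a larger ratio than Fasn and 2.38% than Lpl. These ratios describe libraries that were singled out for their high values, so no test is attached to them.

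**Figure D2:**
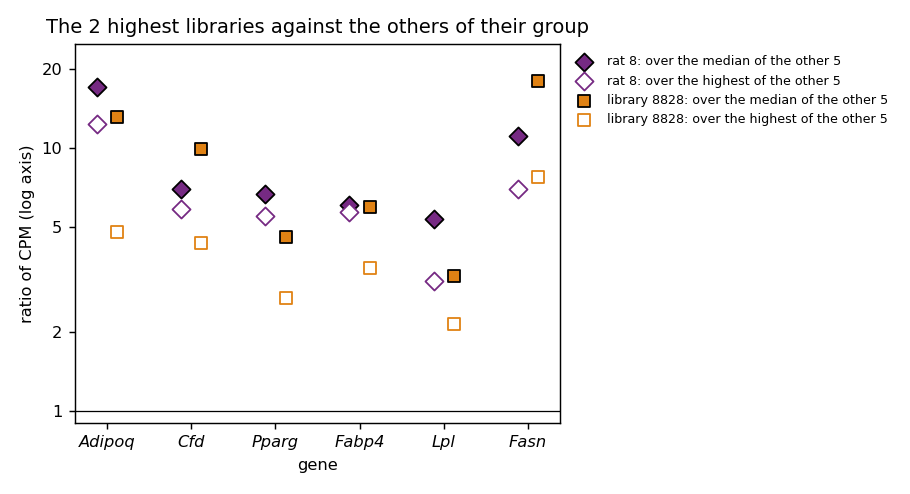
Ratio of CPM (log axis) in rat 8 to the other 5 aged rats fed AL (diamonds) and in library 8828 to the other 5 aged CR libraries (squares) for the 6 genes; filled symbols are over the median and open symbols over the highest of the other libraries. All ratios are above 2, the largest are those of Adipoq in rat 8 (17.1) and Fasn in library 8828 (18.1), and Lpl has the smallest in both.

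The other genes were compared with Adipoq across the 16 libraries without rat 8 and library 8828, which are also the libraries farthest from the median of Adipoq, and which form a separate cluster, so that no test over all 18 is given. On log2 CPM, Cfd followed Adipoq most closely, with a Pearson r of 0.961 (permutation p = 1e-05, the smallest the resampling can give, adjusted p = 5e-05 over 5 relations) and a Spearman rho of 0.874 (permutation p = 5e-05, adjusted p = 0.000175). Pparg had r = 0.816 (permutation p = 0.00017, adjusted p = 0.000383) and rho = 0.776 (permutation p = 0.00062, adjusted p = 0.00103). Fabp4 had r = 0.803 (permutation p = 0.00023, adjusted p = 0.000383) and rho = 0.518 (permutation p = 0.0425, adjusted p = 0.0425). Fasn had r = 0.741 (permutation p = 0.00104, adjusted p = 0.0013) and rho = 0.862 (permutation p = 7e-05, adjusted p = 0.000175). Lpl was the weakest, with r = 0.567 (permutation p = 0.0215, adjusted p = 0.0215) and rho = 0.521 (permutation p = 0.0408, adjusted p = 0.0425). Leaving out each of the 16 libraries in turn was run for r and not for rho. By r, the relation of Lpl passed in 14 of 16 fits (r 0.407 to 0.65). It was lost without rat 1 (permutation test, adjusted p = 0.131) and without rat 15 (adjusted p = 0.0536). The other 4 relations passed by r in all 16, with r of at least 0.69.

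Differences between group means were then removed. With each group centred at its own mean, r over the 16 libraries was 0.965 for Cfd, 0.834 for Pparg, 0.777 for Fabp4, 0.739 for Fasn and 0.571 for Lpl. Within the 6 young rats fed AL, which hold neither of the high libraries, r was 0.989 for Cfd and 0.861 to 0.888 for the others. Among the 5 aged rats fed AL other than rat 8, too few for an r, Adipoq spanned only 1.78-fold. Fasn was lowest in rats 10 and 12 (34.2 and 47.8 CPM) and highest in rat 7 (127 CPM), as was Adipoq, but Cfd, Pparg, Fabp4 and Lpl did not share its order. Rat 10 had the least Adipoq of these (63.5 CPM) and the most Cfd (95.1 CPM), and rat 7 the most Adipoq (113 CPM) and the least Fabp4 (187 CPM). In the 5 aged CR libraries other than 8828, likewise too few for an r, Cfd and Pparg stood in the same order as Adipoq, from rat 13 up to library 8826. Lpl did not, with rat 13 (783 CPM) above library 8826 (646 CPM). All values of a library share its depth and scaling. The slopes differed between genes. Over the 16 libraries a doubling of Adipoq went with a log2 change of 0.82 in Cfd, 0.35 in Fasn, 0.28 in Pparg, 0.27 in Fabp4 and 0.16 in Lpl.

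**Figure D3:**
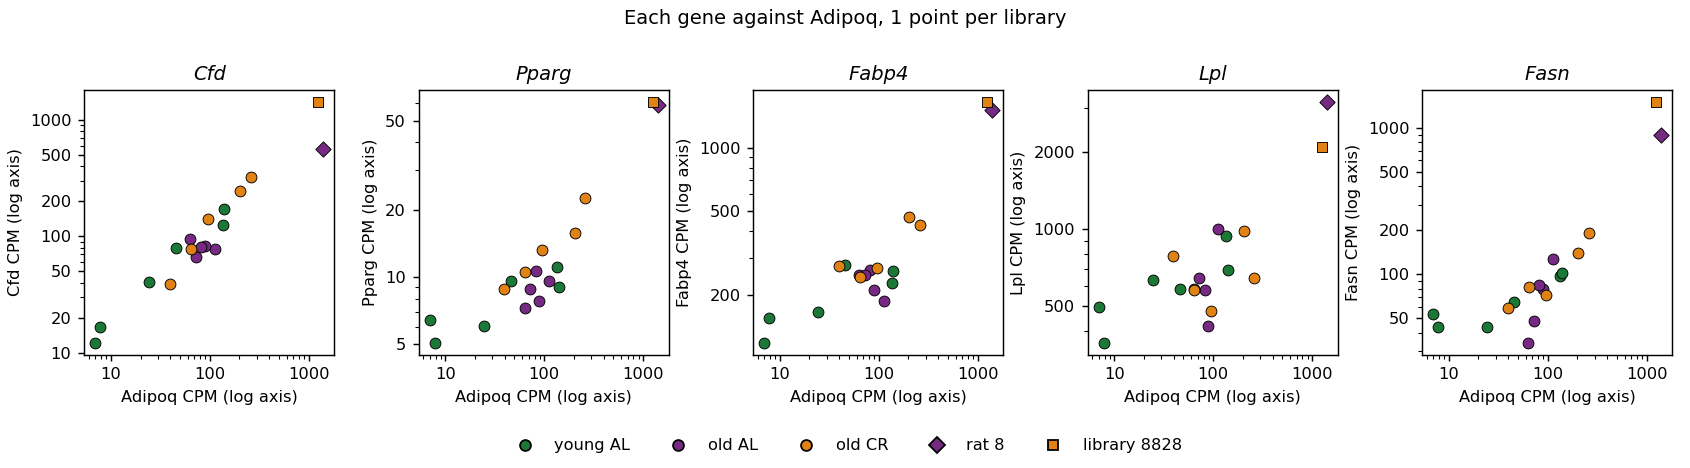
CPM of Cfd, Pparg, Fabp4, Lpl and Fasn against CPM of Adipoq (both log axes), 1 point per library, coloured by group, with rat 8 as a diamond and library 8828 as a square. Cfd rises nearly in step with Adipoq (slope 0.82 without the pair at the upper right), and Lpl has the shallowest slope (0.16).

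Among the 14645 other genes tested, ranked by r with Adipoq over the same 16 libraries, Cfd stood at rank 5, Pparg at 72, Fabp4 at 90, Fasn at 160 and Lpl at 647. By likeness to Adipoq over all 18 libraries, a description that includes the separate pair and has no test, the nearest genes were ENSRNOG00000009153 (chr4:145377431-145390497, 0.994) and ENSRNOG00000000158 (chr18:40701984-40716686, 0.992). The files do not pair these identifiers with symbols.

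The ratio of each gene to Adipoq in TPM, which does not depend on the scaling of a library, was also set side by side. The Cfd to Adipoq ratio was 1.89 to 4.33 (median 3.45) in young rats fed AL, 0.812 to 3.05 (1.87) in aged rats fed AL and 1.99 to 3.02 (2.44) in aged CR rats. In this ratio the high libraries parted. Rat 8 had the lowest value of all 18 libraries (0.812), whereas library 8828, at 2.28, lay inside the range of the other aged CR libraries. In the Fasn to Adipoq ratio neither was the lowest of its group. It was 0.142 in rat 8 and 0.266 in library 8828, within the ranges of their groups (0.12 to 0.251 and 0.154 to 0.334). For Fabp4, Pparg and Lpl both high libraries had the lowest ratio of their group. On a fold scale, young rats fed AL spanned the widest range in every ratio but that of Cfd, where aged rats fed AL did. The young values ran from 2.72 to 39.3 for Lpl and 5.16 to 60.2 for Fabp4, with rats 1 and 3 highest. The ratios overlapped between groups in all 5 genes and are given as a description.

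**Figure D4:**
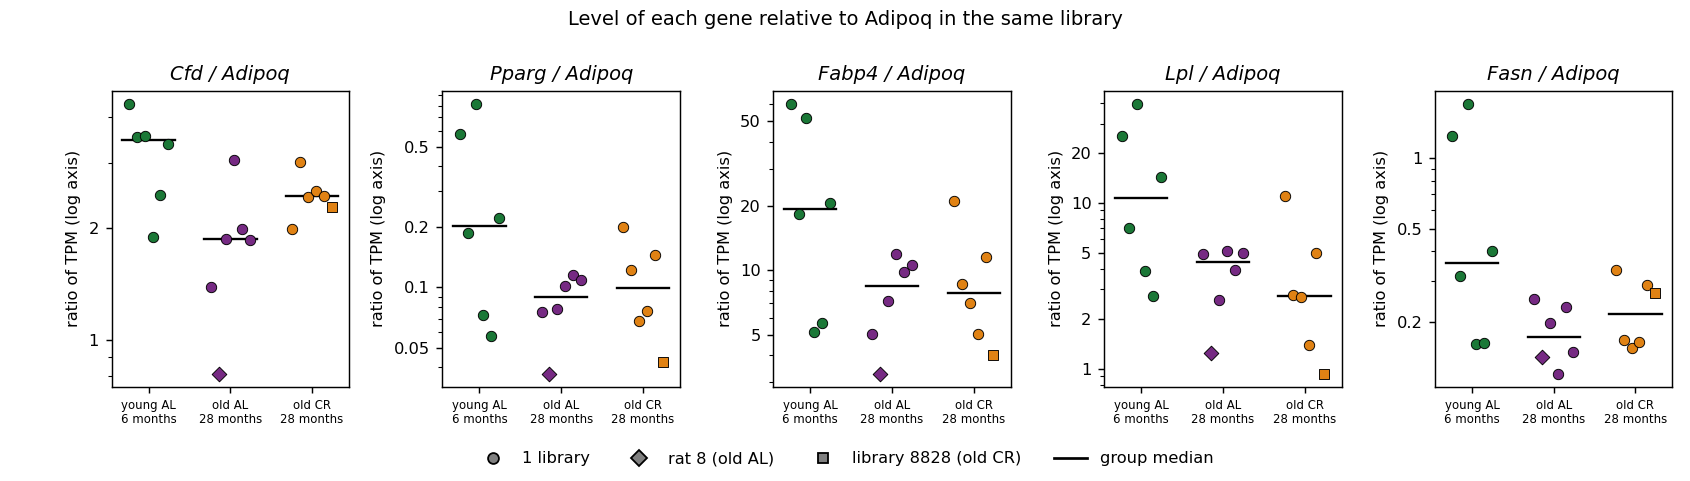
Ratio of TPM of each gene to TPM of Adipoq in the same library (log axis), by group, with the group median as a line, rat 8 as a diamond and library 8828 as a square. Rat 8 is lowest in the Cfd panel (0.812) while library 8828 is not (2.28), and both are lowest of their group in the Pparg, Fabp4 and Lpl panels.

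The comparison of aged with young rats fed AL asks what ageing under free feeding does to these genes. None of the 6 was called, where 3.39% of all genes were, by edgeR's quasi-likelihood test. A call needed a Benjamini-Hochberg adjusted p no higher than 0.05 together with a 1.5-fold difference or more. DESeq2's Wald test on all 18 libraries called none of the 5 genes to which it gave a p, beside 5.81% of all genes, and gave none for Fasn, whose counts met its rule for outlying values. With that rule off it called 0 of 6, beside 6.27% of all genes. In all 6 genes the fitted value was higher in aged rats, with a median log2 fold change of 1.14 against 0.0071 over all genes tested. At an unadjusted p under 0.05 stood 1 of 6 genes with edgeR, beside 22.3% of all genes, and 3 of 5 with DESeq2, beside 13.4% (3 of 6 and 14.1% with its outlier rule off). The 13.4% is over the 28910 genes to which DESeq2 gave a p, genes of low count included. DESeq2's 5.81% of calls is over the 16942 genes with an adjusted p, and edgeR's shares are over the 14646 past the filter. Backgrounds of the tools are therefore not alike, here and in the comparisons below. The edgeR count was 0 of 6 without rat 8 alone, beside 22.0% of all genes, and 4 of 6 without library 8828 alone, beside 23.5%. Fitted to the 12 libraries compared, edgeR called none, beside 1.83% of all genes, with 4 of 6 at an unadjusted p under 0.05, beside 19.5%. The groups overlapped in each of the 6, whereas 2.4% of all genes did not overlap. Adipoq had a log2 fold change of 2.34 (SE 1.03, adjusted p = 0.188), and 6 of 6 aged rats were above the young median, as they were in Cfd. The adjusted p of the other 5 lay between 0.230 and 0.446. The median SE of the 6 genes was 0.69, against 0.19 over all genes. Without rat 8 and library 8828 the log2 fold changes were between 0.07 for Lpl and 0.48 for Adipoq, with adjusted p from 0.596 to 0.934, and none of the 6 was called, beside 4.83% of all genes. None had an unadjusted p under 0.05 with either tool, beside 24.1% of all genes with edgeR and 14.6% with DESeq2, and all 6 still overlapped between the groups, where 3.89% of all genes did not.

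The comparison of aged CR rats with young rats fed AL joins age and diet. With all 18 libraries again none of the 6 genes was called, where 1.98% of all genes were. At an unadjusted p under 0.05 stood 5 of the 6 with edgeR, beside 19.3% of all genes, and 0 of the 6 without library 8828 alone, beside 15.7%. DESeq2's Wald test with all libraries again gave no p for Fasn and called none of the other 5, beside 4.16% of all genes, with 4 of 5 at an unadjusted p under 0.05, beside 12.2%. With its outlier rule off it called 0 of 6, beside 4.34%. Fitted to the 12 libraries compared, DESeq2 called Pparg and Fabp4 (adjusted p = 0.0262 and 0.0361), beside 5.69% of all genes, and with its outlier rule off also Fasn (adjusted p = 0.0331), beside 6.21%. The fit of edgeR to the same 12 called none, beside 3.13% of all genes, with 5 of 6 at an unadjusted p under 0.05, beside 23.2%. The median log2 fold change was 1.90, against 0.0046 over all genes. Fasn had a log2 fold change of 2.33 (SE 0.88, adjusted p = 0.156), Cfd one of 2.33 (SE 0.85, adjusted p = 0.146) and Adipoq one of 2.41 (SE 1.03, adjusted p = 0.209). Pparg and Fabp4 had 1.47 each (adjusted p = 0.153 and 0.159). All 6 aged CR libraries were above the young median in both, as in Adipoq and Fasn, against 5 in Cfd and 4 in Lpl. Lpl had 0.59 (SE 0.46, adjusted p = 0.505). The groups overlapped in every gene, where 3.26% of all genes did not.

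Without rat 8 and library 8828, Pparg passed the call in this comparison and the other 5 did not, beside 3.11% of all genes. Leaving them out was chosen after seeing their high values in these same genes, and the median SE of the 6 was 0.30 without them and 0.70 with all 18. The p-values of this fit are conditional on that choice. Pparg and Fabp4 were the 2 genes with an unadjusted p under 0.05, beside 20.8% of all genes, and the groups overlapped in all 6, where 4.38% of all genes did not. Its log2 fold change was 0.85 (SE 0.23, edgeR adjusted p = 0.0406), with a mean of 14.1 ± 5.34 CPM (SD, n = 5) under CR and 7.87 ± 2.35 CPM (SD, n = 6) in the young. Fabp4 had 0.76 (SE 0.22, adjusted p = 0.0534), with 337 ± 104 CPM (SD, n = 5) and 200.5 ± 63.5 CPM (SD, n = 6). DESeq2's Wald test on the same 16 libraries called both (adjusted p = 0.0103 and 0.0139), beside 4.62% of all genes. The Pparg call was lost in most fits that left out a further library. It remained in 7 of 16 such fits, with adjusted p from 0.0284 to 0.129, the highest without library 8826, and Fabp4 was called in 2 of 16. In all of these fits the log2 fold change of Pparg was between 0.62 and 0.98 and that of Fabp4 between 0.61 and 0.87. Adipoq, Cfd and Fasn had 1.14, 1.16 and 0.70 (adjusted p = 0.328, 0.259 and 0.259), and Lpl 0.18 (adjusted p = 0.727). With only rat 8 left out, which belongs to neither group of this comparison, both Pparg and Fabp4 were called (adjusted p = 0.0274 and 0.0344), beside 3.92% of all genes. With only library 8828 left out, none was, beside 1.55%.

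The aged groups compared with each other show the difference under CR at one age. None of the 6 genes was called (1.38% of all genes were), and none had an unadjusted p under 0.05 with edgeR, beside 15.3% of all genes. DESeq2's Wald test on all libraries gave a p for 5 of the 6, not for Fasn, with none under 0.05, beside 9.01% of all genes, and with its outlier rule off 0 of 6, beside 9.28%. Log2 fold changes were 1.22 for Cfd (SE 0.82), 0.69 for Fasn (SE 0.84), 0.35 for Pparg (SE 0.53), 0.32 for Fabp4 (SE 0.55), 0.07 for Adipoq (SE 0.98) and -0.19 for Lpl (SE 0.45), with adjusted p from 0.527 to 0.984. Their median was 0.33, against -0.019 over all genes. The aged groups overlapped in all 6 genes, where 2.06% of all genes did not overlap. Each group holds one of the high libraries. Without both, the log2 fold changes of all 6 were above 0, from 0.11 (Lpl) to 1.04 (Cfd), with a median of 0.61. Pparg had 0.68 (SE 0.24, adjusted p = 0.106) and Fabp4 0.55 (SE 0.23, adjusted p = 0.174), and none was called, beside 3.26% of all genes. Both had an unadjusted p under 0.05, beside 21.3% of all genes, and all 6 overlapped between the groups, where 7.33% of all genes did not. Without library 8828 alone, Adipoq, Fabp4, Pparg, Fasn and Lpl had values below 0 (down to -1.19 for Adipoq), and Cfd had 0.044. Without rat 8 alone, all 6 were above 0 (up to 2.23 for Cfd), and 5 of 6 had an unadjusted p under 0.05, beside 21.7% of all genes, with none called and the lowest adjusted p that of Pparg (0.0661). The sign of Adipoq, near 0 with all libraries, also turned when any of rats 7, 9, 10, 11 and 12 was left out (-0.094 to -0.14). The direction of this comparison therefore depended on which libraries were kept in 5 of the 6 genes.

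**Figure D5:**
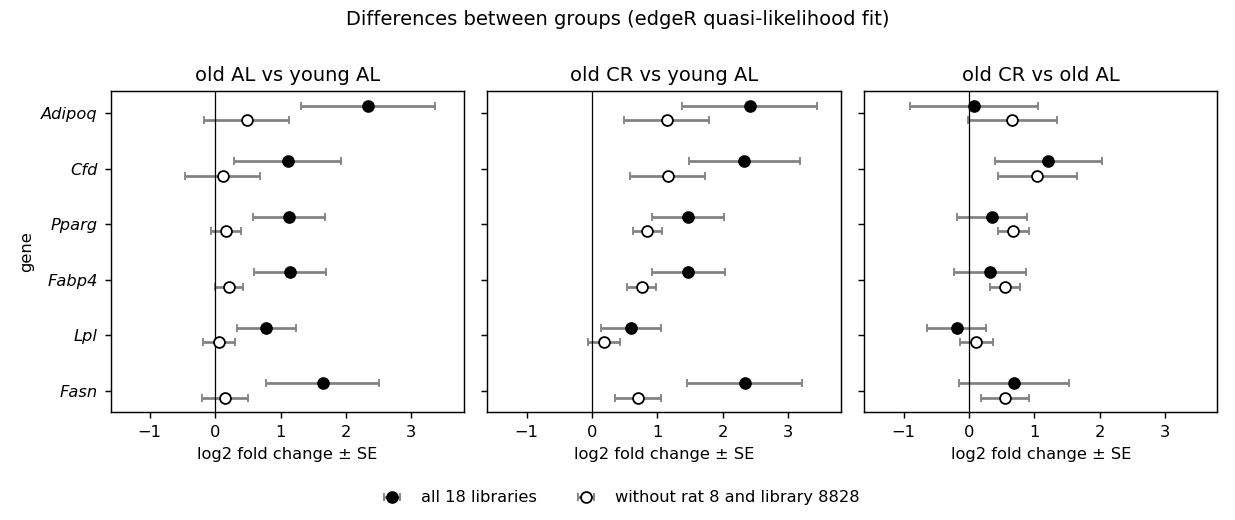
Log2 fold change (x axis, ± SE) of the 6 genes in the 3 comparisons from edgeR's quasi-likelihood fit; filled points are from all 18 libraries and open points from the 16 without rat 8 and library 8828. Open points lie nearer 0 than filled ones in both comparisons with young rats, and their error bars are shorter in every case.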

How the data were processed

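Gastrocnemius RNA of 18 rats in 3 groups was sequenced after ribosomal depletion. Per the file headers and the labels, the authors trimmed reads with Cutadapt 1.2.1, aligned them with STAR 2.3.0e to Rnor_6.0 and counted fragments per gene with featureCounts 1.6.4 on annotation release 96. The deposited counts are whole numbers without normalization. The counting command names no strand option, so reads of both strands count. Of the 6 genes, the span of Cfd alone overlaps another identifier, with 0 exonic bases shared. The deposited table also gives each gene's exonic length in bases, another value the authors' counting wrote, used here for TPM. Of the columns of sample values, 0 were unused, and no gene list could be paired with identifiers.

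In edgeR 4.0.16 (R 4.3.3), genes were kept by filterByExpr, libraries scaled by TMM, and 18 libraries fitted together and tested by quasi-likelihood F tests, with Benjamini-Hochberg adjustment over all genes. CPM use TMM-scaled library sizes, and logs a pseudocount of 0.5. SEs were obtained as the unsigned log2 fold change over root F. Two-sided permutation tests of correlations used 100000 resamples. The fit was tested on simulated data. DESeq2 1.42.0 (with and without its Cook's outlier rule), other scalings and filters, and leaving out libraries were alternatives. Leaving out rat 8 and library 8828 together was chosen after seeing the data. The genes and lists were chosen with earlier results of these data known. Named were all 6 genes and, as the nearest to Adipoq, 2 identifiers. Depth was at least 17335401 counts per library.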

Additional observations from a re-analysis of the deposited data

Results flagged for a closer look

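In each of 18 groups of 6 libraries (6 genes in 3 groups), the gap between the farthest library and its neighbour on log2 CPM was set against the range of the group, with Dixon's critical value for 6 samples. Chance gives about 1 in 20, or 0.9 of the 18, and 6 were above it. The genes share libraries, so the 6 are not independent. All 6 were gaps of rat 8 or library 8828, already singled out above for high values, so the count is a description. Rat 8 stood apart among aged rats fed AL in Fabp4 (gap 0.837 of the range), Cfd (0.829), Pparg (0.824) and Adipoq (0.814). Library 8828 stood apart among aged CR rats in Fabp4 (0.655) and Fasn (0.636). In the remaining 2 genes of rat 8 the gap was 0.598 (Fasn) and 0.565 (Lpl), and in the remaining 4 genes of library 8828 it was between 0.410 (Cfd) and 0.520 (Pparg). No young library was above the critical value, where the largest gap was 0.335, that of rat 1 in Lpl.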

How the results depend on the processing

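No paired analysis was possible because the groups hold different rats and the labels give no pairing between them. Of the log2 fold changes of the 6 genes that had a p, under settings other than leaving out 1 library, 195 kept direction and side of the threshold, 8 passed it and 2 turned. The 2 were Lpl between the aged groups without rat 8 and library 8828, at 0.11 with edgeR and 0.11 with DESeq2. A further 11 kept direction but had no p, because DESeq2 withholds it where a count has a high Cook's distance. With all 18 libraries this was Fasn in each comparison. On the 12 libraries compared, these were Adipoq, Fabp4, Pparg and Fasn between the AL-fed groups, Adipoq, Fabp4 and Fasn between the aged groups, and Fasn between CR and young rats. With that rule (Cook's rule) off, chosen after seeing the data, all 6 had a p. Among genes with a p, the number of the 6 called was 0 in every setting in both comparisons that involve aged rats fed AL. Between aged CR and young rats it was 2 by DESeq2 on the 12 compared and 3 there with Cook's rule off, 1 without rat 8 and library 8828, and 2 there with DESeq2. Leaving out each library in turn gave 0 to 2 in that comparison. Between the aged groups it gave log2 fold changes from -1.19 to 1.94 for Adipoq, -0.39 to 1.27 for Fabp4, -0.28 to 1.32 for Pparg, -0.95 to 2.20 for Fasn, -0.61 to 0.54 for Lpl and 0.044 to 2.23 for Cfd. The correlations with Adipoq over all 18 libraries, which include the separate pair and are given no test, kept their sign in the settings run on them. Those over 16 libraries kept sign and call when centred by group. Over all genes, the comparison of AL-fed groups gave 497 calls (288 to 678 leaving out each library in turn). It gave 330 with 10 counts in every library, 258 with edgeR on the 12 compared, 985 with DESeq2 on all libraries (1134 with Cook's rule off), 868 with DESeq2 on the 12 (1112 with the rule off) and 1088 with DESeq2 without rat 8 and library 8828. The comparison of CR with young rats gave 290 (185 to 578 in turn). It gave 441 with edgeR on the 12, 705 with DESeq2 on all (784 with the rule off), 952 with DESeq2 on the 12 (1031 with the rule off) and, without rat 8 and library 8828, 455 with edgeR and 767 with DESeq2. Between the aged groups there were 202 calls (69 to 385 in turn). There were 129 without a filter on low counts, 130 with edgeR on the 12, 443 with DESeq2 on all (502 with the rule off), 429 with DESeq2 on the 12 (452 with the rule off) and, without rat 8 and library 8828, 477 with edgeR and 711 with DESeq2. With upper-quartile scaling, higher and lower calls were 330 and 173 (275 and 222 with TMM) between the AL-fed groups and 165 and 149 (112 and 178) between CR and young rats, and no direction of the 6 genes turned. The cause of these shifts was not tested. Outside the pair of high libraries, Pparg rested on 105 to 456 counts per library, the fewest of the 6 genes by median, yet its SE was below that of Adipoq, Cfd and Fasn in all 3 comparisons.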
